A study of Mus musculus with 18 samples.

Results

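The 6 genes described here, Vldlr, Lrp1, Lrp8, Scarb1, Lrpap1 and Mylip, encode cell surface lipoprotein receptors and the proteins that escort or degrade them. They were taken by gene symbol from a table of 55450 mouse genes, and all 6 were in it under 1 identifier each. Expression was measured by polyA RNA sequencing in 3 mouse tumour cell lines in culture, all labelled wild type: LLC (Lewis lung carcinoma), MC38 (colon adenocarcinoma) and 4T1 (breast carcinoma). LLC was given 100 µM sildenafil citrate for 48 h, with the solvent DMSO for 48 h as the control. MC38 was given 100 µM sildenafil citrate for 24 h, with DMSO for 24 h as the control. 4T1 was given 100 µM sildenafil citrate for 24 h, with DMSO for 24 h as the control. Each of the 6 groups had 3 libraries. Sildenafil inhibits the phosphodiesterase PDE5, and the title of the series names cholesterol trafficking through NPC1. LLC and MC38 were grown in DMEM and 4T1 in RPMI 1640, all with 10% fetal bovine serum. The medium cannot be told apart from the line between 4T1 and the others, nor the time from the line between LLC and the others.

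Lipoprotein receptors bind apolipoproteins on particles in the fluid around a cell and bring their cholesterol and lipids inside. Vldlr, Lrp8 and Lrp1 belong to one family of endocytic receptors with shared cysteine-rich ligand-binding repeats, whereas Scarb1 (SR-BI) is of another structural class and takes up cholesteryl esters from high density lipoprotein without taking in the particle. Lrpap1 (RAP) is a chaperone of the endoplasmic reticulum that keeps ligands off receptors of the first family while they fold, and Mylip (IDOL) is an E3 ubiquitin ligase, induced through liver X receptors, that sends Vldlr and Lrp8 to lysosomes. Mylip is the only degrader in the set.

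The promoters of the genes that were off in some lines, and of the chaperone gene, are shown with the motifs found in them. RefSeq promoter windows on GRCm38.p6 (250 bases before to 50 bases after a transcript start) were found for 5 of the 6 genes, 8 windows in all, with Scarb1 not among them. Searched on both strands were 5 motifs, the sterol regulatory element (TCACNCCAC), the CCAAT box (CCAAT), the GC box (GGGCGG), the E-box (CACGTG) and the nuclear receptor motif (AGGTCA). They occurred in 1.24%, 37.4%, 35.7%, 7.15% and 16.3% of all 32851 windows. None of these motif matches overlapped another among the sequences below, which are printed 5′ to 3′ on the gene's own strand with the matches in capitals (ATTGG and CCGCCC are the CCAAT box and the GC box on the other strand). They lie at chr19:27216234-27216533 on the plus strand for the first Vldlr start, chr19:27216770-27217069 on the plus strand for the second Vldlr start, chr13:45389492-45389791 on the plus strand for Mylip and chr5:35105650-35105949 on the minus strand for Lrpap1.
Vldlr, first start: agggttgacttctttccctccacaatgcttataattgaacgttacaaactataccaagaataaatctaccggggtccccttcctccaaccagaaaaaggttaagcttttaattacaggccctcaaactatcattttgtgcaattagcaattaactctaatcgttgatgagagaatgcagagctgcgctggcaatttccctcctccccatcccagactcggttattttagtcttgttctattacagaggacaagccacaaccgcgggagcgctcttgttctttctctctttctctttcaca
Vldlr, second start: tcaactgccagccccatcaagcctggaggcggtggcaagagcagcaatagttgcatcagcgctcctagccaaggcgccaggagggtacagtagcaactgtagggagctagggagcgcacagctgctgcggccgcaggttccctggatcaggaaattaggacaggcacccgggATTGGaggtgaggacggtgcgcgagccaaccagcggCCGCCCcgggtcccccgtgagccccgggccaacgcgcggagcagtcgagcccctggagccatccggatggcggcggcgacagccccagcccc
Mylip: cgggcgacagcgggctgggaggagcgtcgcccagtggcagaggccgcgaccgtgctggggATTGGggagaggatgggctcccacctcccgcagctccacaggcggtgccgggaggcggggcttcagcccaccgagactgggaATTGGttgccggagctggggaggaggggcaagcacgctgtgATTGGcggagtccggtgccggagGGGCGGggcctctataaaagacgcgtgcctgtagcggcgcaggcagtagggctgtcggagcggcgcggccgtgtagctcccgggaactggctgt
Lrpap1: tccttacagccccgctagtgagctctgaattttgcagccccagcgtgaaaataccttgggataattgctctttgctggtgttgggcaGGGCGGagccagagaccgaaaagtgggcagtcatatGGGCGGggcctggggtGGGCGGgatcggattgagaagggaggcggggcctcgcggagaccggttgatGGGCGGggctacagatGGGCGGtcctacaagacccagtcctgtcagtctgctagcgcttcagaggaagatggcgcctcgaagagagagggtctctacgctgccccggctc

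The first Vldlr window held 43.0% G and C, 8 CpG dinucleotides and none of the 5 motifs. The second Vldlr window held 68.0% G and C, 23 CpG, a CCAAT box whose first base on the plus strand lay at -78 from the start and a GC box at -42. The Mylip window was the richest of the 8, with 71.0% G and C and 29 CpG, against medians of 52.7% and 7 over all windows. It held CCAAT boxes at -190, -108 and -67 and a GC box at -44. The Lrpap1 window held 61.3% G and C, 18 CpG and 5 GC boxes, at -163, -127, -111, -60 and -44. The Lrp1 window held 67.7% G and C, 16 CpG and 1 GC box, and the first of 3 Lrp8 windows held 62.7% G and C, 21 CpG and none of the motifs. The second Lrp8 window also held none, and the third held 1 nuclear receptor motif, at -229. The sterol regulatory element was in none of the 8 windows. A match or its absence describes the letters of the window alone.

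Library totals ran from 26348654 to 32129771 counts in LLC, 29438187 to 36417399 in MC38 and 41070021 to 61600646 in 4T1. Protein-coding genes held 87.6% to 89.7% of counts in LLC, 87.3% to 89.5% in MC38 and 97.1% to 97.3% in 4T1. This difference of 4T1 libraries from the others cannot be told apart from the line either. The labels do not say whether replicates were cultured separately, and the p-values below cover the spread among the sequenced libraries, possibly technical, and no more. Marker levels are in CPM, counts scaled to the library total and to normalisation (TMM) factors of all 18 libraries. Epithelial markers, 10 in all, summed to 182 to 189 CPM in LLC sildenafil libraries, against 203 to 228 CPM in LLC controls, with Krt8 the highest. They summed to 2110 to 2260 CPM against 2610 to 2670 CPM in MC38, led by Krt8 and Cldn4, and to 1940 to 2000 CPM against 2180 to 2240 CPM in 4T1, led by Krt18 and Krt8. The 7 lung markers, led by Hopx and Napsa, summed to 11.4 to 13.6 CPM in LLC sildenafil libraries, against 11.8 to 12 CPM in LLC controls. The 7 colon markers, led by Cdh17, summed to 6.85 to 7.48 CPM in MC38 sildenafil libraries, against 5.4 to 5.96 CPM in MC38 controls. Epcam was at 0 counts in all LLC and MC38 libraries, the lung transcription factor gene Nkx2-1 and the surfactant genes Sftpc and Sftpb were at 0 in all LLC libraries, and the colon transcription factor genes Cdx2 and Cdx1 were at 0 in all MC38 libraries. No test was made of the summed levels of markers of other cell types. Summed over 8 fibroblast markers, the level was 2130 to 2170 CPM in LLC sildenafil libraries, against 1100 to 1140 CPM in LLC controls. It was 944 to 955 CPM against 1020 to 1040 CPM in MC38, and 51.4 to 59.7 CPM against 26.5 to 29.1 CPM in 4T1. Of the 8, 1 was at 0 in all LLC sildenafil libraries and 2 in all LLC controls, 1 in either MC38 group and 3 in either 4T1 group. Summed over 9 leukocyte markers, it was 4.69 to 5.62 CPM in LLC sildenafil libraries, against 2.61 to 3.18 CPM in LLC controls. It was 9.86 to 10.6 CPM against 5.92 to 6.5 CPM in MC38, and 81.8 to 89 CPM against 34.7 to 35.9 CPM in 4T1. The T cell gene Cd3e was at 0 in every library, and 2 or 3 of the 9 were at 0 in each group. Summed over 5 neuronal markers it was 30.3 to 31.3 CPM in LLC sildenafil libraries, against 20 to 23.4 CPM in LLC controls. It was 31.7 to 34.6 CPM against 27.6 to 33.1 CPM in MC38, where the ranges overlapped, and 11.5 to 12.1 CPM against 5.77 to 6.9 CPM in 4T1. Of the 5, 3 were at 0 in each group but the 4T1 controls, with 1. Endothelial and hepatocyte markers each summed to at most 2.45 CPM in any library. The part of these levels in the results below was not tested.

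Within each line the genes were tested on its 6 libraries with edgeR's quasi-likelihood test, adjusted over all genes tested by the Benjamini-Hochberg method, and a gene was called at an adjusted p under 0.05. Sildenafil changed 3 of the 4 genes tested in LLC, 1 up and 2 down, against 27.3% of all genes called in that line (15.1% higher and 12.2% lower). It changed 2 of the 5 tested in MC38, both up, against 37.8% (19.5% higher and 18.3% lower). It changed 5 of the 6 tested in 4T1, all up, against 66.7% (33.5% higher and 33.3% lower). The median log2 fold change of the members tested was -0.196 in LLC, 0.199 in MC38 and 0.2 in 4T1, beside -0.00619, 0.00399 and 0.00231 over all genes tested. Where sildenafil and control libraries of a gene are said below not to overlap, the share of all genes that did so was not computed. In these bulk samples fewer cells expressing a gene and less of its RNA per cell cannot be told apart.

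Vldlr, the very low density lipoprotein receptor, which binds apolipoprotein E and the signalling protein reelin, was measured in 1 line only. Its gene lies at chr19:27216484-27254231 on the plus strand (GENCODE M21, GRCm38, as for all genes below; 19 exons in its longest coding transcript). It had 0 counts in all 3 sildenafil and all 3 control libraries of LLC and likewise in all 6 of MC38. A count of 0 over the 3 libraries of a group allows a level of up to 0.033 CPM in LLC sildenafil, 0.0341 CPM in LLC control, 0.0316 CPM in MC38 sildenafil and 0.0339 CPM in MC38 control cells (3 counts over the group, counting error only). In 4T1 it had 41.5, 42.3 and 38.9 CPM in sildenafil libraries, against 37.5, 35.7 and 37 CPM in controls. The sildenafil libraries all lay above the controls, by a log2 fold change of 0.16 ± 0.0429 (SE, edgeR adjusted p = 0.0058). Between control cells, Vldlr was at least 1030-fold lower in LLC than in 4T1 and at least 1040-fold lower in MC38 than in 4T1, where the pooled level was 35.1 CPM. LLC and MC38 were both at 0, so no fold is given between them.

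The genes around Vldlr differed in whether they too were without reads. Pum3, 134466 bases after it and coding for an RNA-binding protein, had 3189 to 3872 counts in LLC sildenafil libraries, against 3074 to 3753 in LLC controls. It had 2709 to 3418 against 3077 to 3202 counts in MC38, and 4649 to 7474 against 6705 to 8890 counts in 4T1. Rfx3, a transcription factor gene beyond it, had counts in all 18 libraries. On the other side Smarca2, which encodes an ATPase of the SWI/SNF chromatin remodelling complex, lies 438161 bases before Vldlr. Smarca2 had 1, 1 and 2 counts in LLC sildenafil libraries and 0 in all 3 LLC controls. It had 903 to 1160 counts in MC38 sildenafil libraries, against 682 to 756 in MC38 controls, and 3533 to 4933 in 4T1 sildenafil libraries, against 2598 to 3487 in 4T1 controls. Its level in LLC controls was at least 708-fold below that of MC38 controls and at least 1850-fold below that of 4T1 controls. LLC thus had no reads of Vldlr and at most 2 of Smarca2 in a library, whereas MC38 had reads of Smarca2 in every library. Kcnv2 and Gm815, which flank Vldlr more closely, had 0 counts in all 18 libraries. Dmrt2, a further transcription factor gene on that side, had counts in MC38 alone, 260 to 299 in sildenafil libraries and 174 to 218 in controls.

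**Figure D1:**
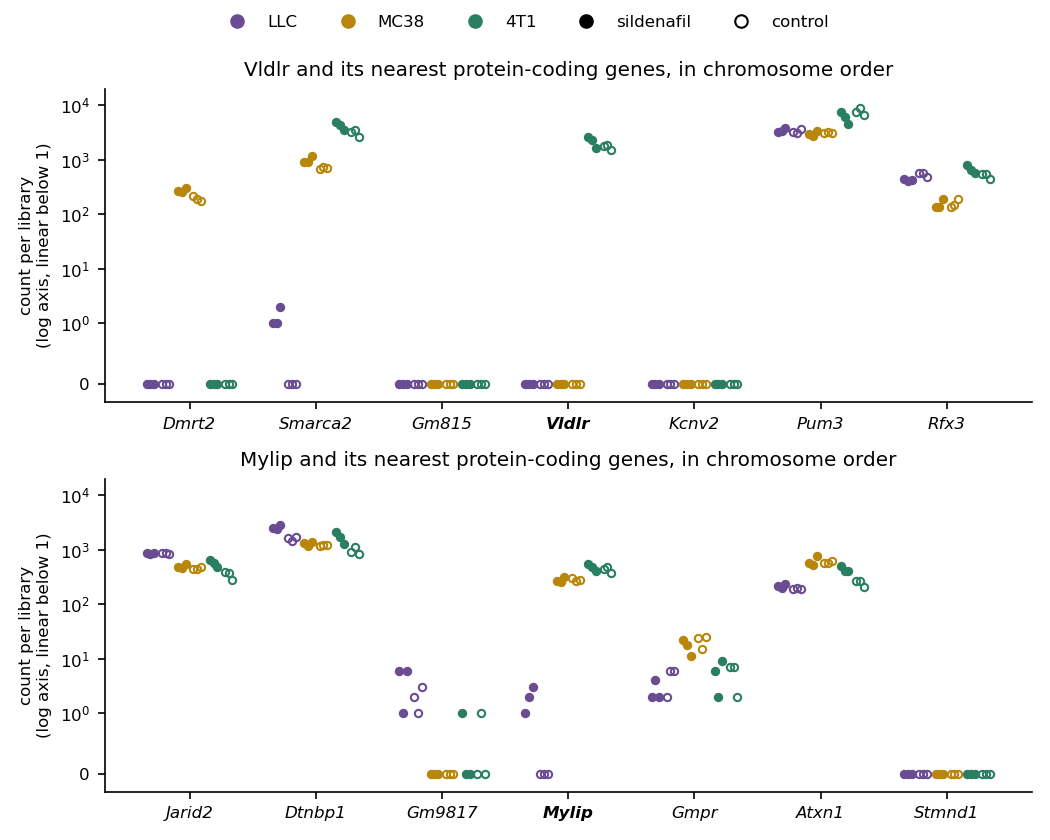
Counts per library of Vldlr (top) and Mylip (bottom) with the 3 nearest protein-coding genes on each side, in chromosome order and not to scale of distance; each point is 1 library, filled for sildenafil and open for control, coloured by line, on a log axis that is linear below 1. Vldlr is at 0 in all LLC and MC38 libraries while Pum3 and Rfx3 are not, Smarca2 is at 0 to 2 counts in LLC, and Mylip is at 0 to 3 counts in LLC while Jarid2, Dtnbp1 and Atxn1 are not.

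Mylip, the ubiquitin ligase (chr13:45389742-45412022, plus strand, 7 exons in its longest coding transcript), had almost no reads in LLC. It had 1, 2 and 3 counts in the LLC sildenafil libraries, against 0 in each of the 3 controls. An exact two-sided permutation test over these 6 libraries gave p = 0.1, the smallest that 3 against 3 can give, and the gene did not pass the filter of the LLC test. In MC38 it had 8.11, 8.72 and 8.56 CPM in sildenafil libraries, against 10, 8.54 and 9.14 CPM in controls. In 4T1 it had 8.75, 9.04 and 9.66 CPM in sildenafil libraries, against 9.25, 9.16 and 9.11 CPM in controls. The ranges overlapped in both lines, and neither difference passed the test: the log2 fold change was -0.13 ± 0.0845 in MC38 (edgeR adjusted p = 0.268) and -0.0081 ± 0.0643 in 4T1 (edgeR adjusted p = 0.92). Between control cells, Mylip was at least 283-fold lower in LLC than in MC38 and at least 257-fold lower in LLC than in 4T1. MC38 controls averaged 9.67 ± 0.776 CPM and 4T1 controls 8.78 ± 0.0939 CPM on the scale of all 18 libraries (SD, n = 3 each), a difference that did not pass (log2 0.14 ± 0.0852, edgeR adjusted p = 0.134). Jarid2, a subunit of a Polycomb complex, Dtnbp1 and Atxn1, which lie 468098, 387594 and 137732 bases from Mylip, had counts in all 18 libraries. In LLC these were 827 to 875, 2431 to 2781 and 202 to 239 in sildenafil libraries, against 848 to 871, 1448 to 1717 and 187 to 201 in controls.

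In control cells the other 4 genes were on in all 3 lines, and the widest log2 difference between lines was 1.09, for Lrp1 in LLC over 4T1. Of the 6 genes, 5 differed between LLC and MC38 controls, 6 between LLC and 4T1 and 4 between MC38 and 4T1. Of all 16040 genes tested in the fit of all 18 libraries, 77%, 87% and 84.8% did, and the members' counts are read against these shares. Vldlr is in both counts against 4T1, and Mylip in both counts with LLC. They passed the filter of that fit only through lines where they had reads. Their calls against a line at 0 therefore add nothing to the floors given above. Per kilobase of exon, with the exons of all annotated transcripts merged, Lrp1 had the highest mean of the 6 in each line. The order of genes depends on this divisor. Merged exons span 8500 bases for Scarb1, against 2521 in its longest coding transcript, and 17717 against 14888 bases for Lrp1. An order by transcript length was not computed. Lrp1 had 23.0 ± 3.77 CPM per kb in LLC, 12 ± 2.08 in MC38 and 10.8 ± 0.5 in 4T1 (SD, n = 3 each). In LLC it was followed by Scarb1 (13.8 CPM per kb), Lrpap1 (12.2) and Lrp8 (8.95). In MC38 the order was Lrpap1 (11), whose range overlapped that of Lrp1, then Lrp8 (9.93), Scarb1 (8.24) and Mylip (2.99). In 4T1 it was Lrpap1 (10.1), Scarb1 (9.31), Lrp8 (6.71), Vldlr (3.49) and Mylip (2.72), with no overlap between neighbours in the order.

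**Figure D2:**
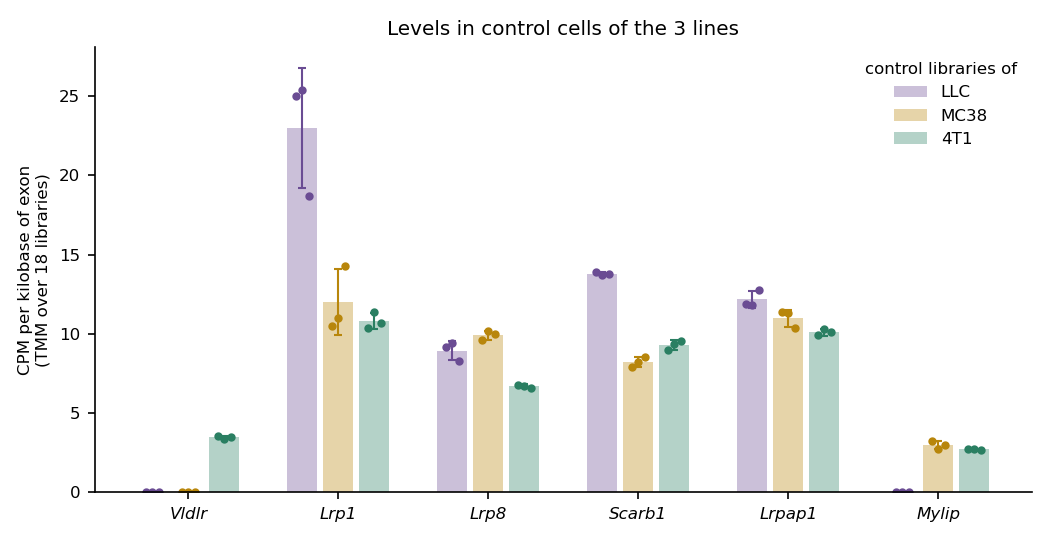
Levels of the 6 genes in control libraries, in CPM per kilobase of exon (TMM over all 18 libraries), as bars of the mean with SD and points for the 3 libraries of LLC, MC38 and 4T1. Lrp1 stands highest in LLC at 23.0 CPM per kb, Vldlr is at 0 in LLC and MC38, and Mylip is at 0 in LLC.

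Lrp1, a large endocytic receptor for apolipoprotein E remnants and for complexes of proteases with their inhibitors (chr10:127538161-127621148, minus strand, 89 exons), responded to sildenafil in 4T1 by the test and was not called in the other lines. It had 380, 308 and 305 CPM in LLC sildenafil libraries, against 451, 459 and 335 CPM in LLC controls. It had 205, 232 and 259 CPM in MC38 sildenafil libraries, against 177, 187 and 242 CPM in MC38 controls. In both lines the groups overlapped, and the log2 fold changes of -0.33 ± 0.152 in LLC (edgeR adjusted p = 0.166) and 0.20 ± 0.167 in MC38 (edgeR adjusted p = 0.431) did not pass. In 4T1 it had 297, 294 and 323 CPM in sildenafil libraries, against 192, 210 and 199 CPM in controls. Every sildenafil library there lay above every control, and Lrp1 rose by a log2 fold change of 0.61 ± 0.0418 (edgeR adjusted p = 4.56e-08), the largest change of the 6 genes in any line. The response was lower in LLC than in 4T1 by 0.93 ± 0.201 on the log2 scale (LLC minus 4T1, -0.93, edgeR adjusted p = 0.00201). The differences of response between LLC and MC38 (-0.51 ± 0.202, adjusted p = 0.0949) and between MC38 and 4T1 (-0.42 ± 0.202, adjusted p = 0.135) did not pass. Without a filter on low counts both were called (adjusted p = 3.01e-11 and 1.65e-08). That between LLC and MC38 was also called by DESeq2 (adjusted p = 0.0413), without MC38 control replicate 3 (adjusted p = 0.0257) and without LLC control replicate 3 (adjusted p = 0.0216). Leaving out LLC control replicate 3 brought the LLC fold change to -0.45 (edgeR adjusted p = 0.0439), and DESeq2 also called it (adjusted p = 0.0255). With the replicate number as a block, edgeR also called Lrp1 in MC38 (0.20 ± 0.0345, adjusted p = 0.000301) and in LLC (-0.32 ± 0.0856, adjusted p = 0.0342). Both differences of response that had not passed were called with the block, that between MC38 and 4T1 at an adjusted p of 0.0166. Whether the replicate numbers pair the libraries was not settled.

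Beside Lrp1 are set the levels of Gm26917, an annotated non-coding RNA gene used here as a sign of RNA without a poly(A) tail. That meaning of its level was assumed and not tested. Gm26917 had 13900, 7170 and 5840 CPM in LLC sildenafil replicates 1, 2 and 3, against 30000, 21200 and 9780 CPM in LLC controls. It had 4820, 5910 and 5500 CPM in MC38 sildenafil libraries, against 8950, 10500 and 14100 CPM in MC38 controls. It had 265, 239 and 275 CPM in 4T1 sildenafil libraries, against 166, 162 and 161 CPM in 4T1 controls. In LLC the 3 libraries with the most Lrp1 were also the 3 with the most Gm26917, and in MC38 the control library with the most Gm26917 had the most Lrp1 of the controls. Between the groups of MC38 the order was the opposite, with less Gm26917 and a higher mean of Lrp1 in sildenafil libraries. Among MC38 sildenafil libraries, Lrp1 was highest in replicate 3 and Gm26917 in replicate 2. Deviations from group means were correlated over the 6 libraries of each line. Pearson's r of Lrp1 with Gm26917 was 0.952 in LLC, 0.89 in MC38 and 0.482 in 4T1. The medians of r over all genes tested were -0.0226, -0.0416 and -0.00864. With the Gm26917 level as a covariate the Lrp1 fold change was 0.0005 ± 0.0633 in LLC (edgeR adjusted p = 0.997), 0.95 ± 0.206 in MC38 (adjusted p = 0.0879) and 0.31 ± 0.2 in 4T1 (adjusted p = 0.409). Treatment accounted for a share of 0.468, 0.856 and 0.966 of the variance of that covariate in LLC, MC38 and 4T1, and in MC38 and 4T1 the covariate and the treatment can hardly be told apart. Under that covariate both MC38 calls were kept, with log2 fold changes of 0.40 ± 0.0837 for Lrp8 (adjusted p = 0.00916) and 0.74 ± 0.0955 for Scarb1 (adjusted p = 0.000191). In LLC that of Lrpap1 was kept (0.39 ± 0.0605, adjusted p = 0.000855), while Lrp8 at -0.16 ± 0.0574 and Scarb1 at -0.13 ± 0.0486 were no longer called (adjusted p = 0.0817 and 0.0853). In 4T1 none of the 5 was called, with larger errors and fold changes of 0.44 ± 0.227 for Vldlr, 0.03 ± 0.191 for Lrp8, 0.37 ± 0.192 for Scarb1 and 0.59 ± 0.197 for Lrpap1 beside that of Lrp1. Control levels of Lrp1 were higher in LLC than in MC38 by 0.94 ± 0.144 and than in 4T1 by 1.09 ± 0.144 (log2, edgeR adjusted p = 4.21e-05 and 8.36e-06). MC38 and 4T1 controls differed by 0.14 ± 0.143, which did not pass (adjusted p = 0.358) except without a filter on low counts (0.12, adjusted p = 0.0268).

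**Figure D3:**
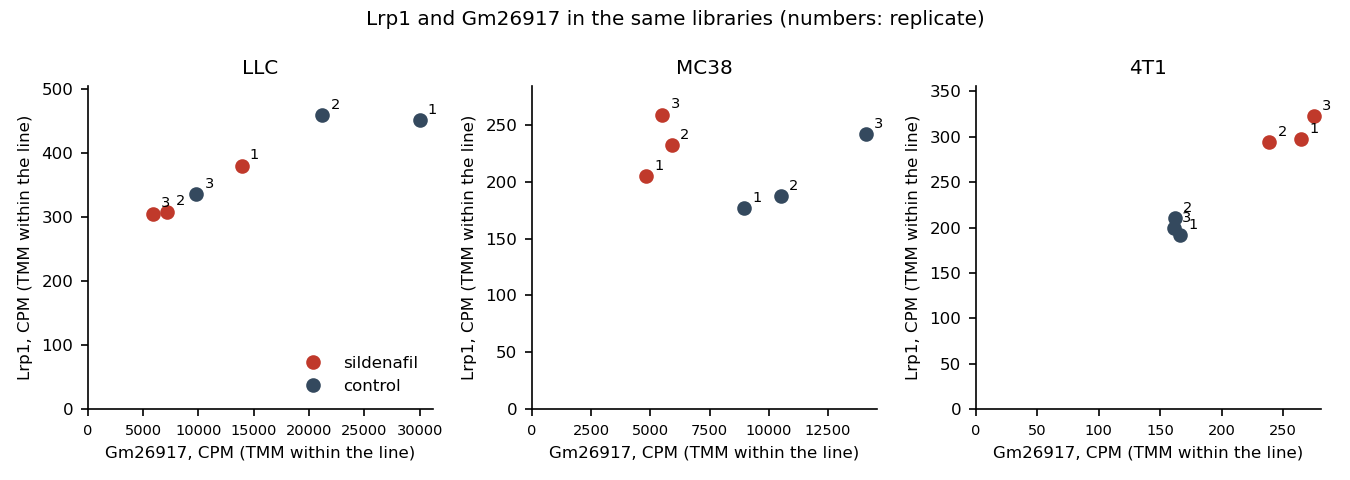
Lrp1 against Gm26917 in the same libraries, both in CPM (TMM within the line), in LLC, MC38 and 4T1; each point is 1 library, coloured by treatment and numbered by replicate. The LLC controls spread from 335 to 459 CPM of Lrp1 and from 9780 to 30000 CPM of Gm26917, and the control lowest in one is lowest in the other.

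Lrp8 (apolipoprotein E receptor 2, a second reelin receptor; chr4:107802261-107876840, plus strand, 16 exons in its longest coding transcript) rose in MC38 and 4T1 and fell in LLC. It had 82, 79.9 and 78.8 CPM in LLC sildenafil libraries, against 98.2, 101 and 88.3 CPM in LLC controls. It had 128, 126 and 130 CPM in MC38 sildenafil libraries, against 96.6, 102 and 99.9 CPM in MC38 controls. The groups did not overlap in any line, though the share of all genes without overlap was not computed. In 4T1 the step was small, with 78.2, 79 and 80.4 CPM in sildenafil libraries, against 74.7, 73.5 and 72.8 CPM in controls. Lrp8 fell in LLC by a log2 fold change of -0.25 ± 0.0562 (edgeR adjusted p = 0.0092). It rose in MC38 by 0.36 ± 0.0319 (adjusted p = 4.43e-07) and in 4T1 by 0.10 ± 0.0326 (adjusted p = 0.0121). The response in LLC was lower than that in MC38 (-0.60 ± 0.0573, adjusted p = 7.31e-08) and than that in 4T1 (-0.36 ± 0.0572, adjusted p = 1.98e-05). The response in MC38 was higher than that in 4T1 (0.24 ± 0.0567, adjusted p = 0.00163). Leaving out LLC sildenafil replicate 2 or 3 ended the LLC call (adjusted p = 0.0515 and 0.0549), and leaving out 4T1 control replicate 3 ended the 4T1 call (adjusted p = 0.053). Across the 6 groups MC38 sildenafil cells had the most Lrp8, 134 ± 2.06 CPM on the scale of all 18 libraries, and 4T1 control cells the least, 70.5 ± 1.11 CPM (SD, n = 3 each), with no overlap between neighbours in the order. Control levels were higher in MC38 than in 4T1 by 0.57 ± 0.0404 (adjusted p = 8.18e-12) and higher in LLC than in 4T1 by 0.42 ± 0.0405 (adjusted p = 1.91e-09). They were lower in LLC than in MC38 by -0.15 ± 0.0406 (adjusted p = 0.00201), a call that was lost with RLE size factors (-0.088, adjusted p = 0.0549), with library totals (-0.05, adjusted p = 0.319), with protein-coding genes alone (-0.077, adjusted p = 0.0917) and in DESeq2 (-0.088, adjusted p = 0.0527).

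Scarb1, the high density lipoprotein receptor (chr5:125277087-125341094, minus strand, 13 exons in its longest coding transcript), moved in the same directions as Lrp8. It had 109, 108 and 109 CPM in LLC sildenafil libraries, against 120, 119 and 119 CPM in LLC controls. It had 98.5, 104 and 95.5 CPM in MC38 sildenafil libraries, against 64.4, 67 and 69.2 CPM in MC38 controls. It had 97, 99 and 98 CPM in 4T1 sildenafil libraries, against 79.8, 82.8 and 85.4 CPM in 4T1 controls. No group overlapped its control: the sildenafil libraries were lower in LLC and higher in MC38 and 4T1. As for Lrp8, the share of all genes without overlap was not computed. Scarb1 fell by a log2 fold change of -0.14 ± 0.0401 in LLC (edgeR adjusted p = 0.0311). It rose by 0.57 ± 0.0397 in MC38 (adjusted p = 3.3e-08) and by 0.25 ± 0.0344 in 4T1 (adjusted p = 2.55e-05). The LLC call was lost in DESeq2 (adjusted p = 0.0523), with library totals (adjusted p = 0.0552), and without a filter on low counts (adjusted p = 0.0992). It was also lost in 5 of the 6 fits that left out 1 library, all except that without control replicate 3, with the highest adjusted p of 0.143 without sildenafil replicate 2. The response in LLC was lower than in MC38 (-0.69 ± 0.0542, adjusted p = 3.34e-09) and than in 4T1 (-0.38 ± 0.0534, adjusted p = 3.53e-06). That in MC38 was higher than in 4T1 (0.31 ± 0.0538, adjusted p = 7.51e-05). In controls the level was highest in LLC (117 ± 0.731 CPM on the scale of all 18 libraries), and it was 70.1 ± 2.64 CPM in MC38 and 79.1 ± 2.48 CPM in 4T1 (SD, n = 3 each). All 3 pairs differed. LLC was above MC38 by 0.74 ± 0.0387 (adjusted p = 2.44e-14) and above 4T1 by 0.57 ± 0.0379 (adjusted p = 1.92e-12). MC38 was below 4T1 (-0.17 ± 0.0385, adjusted p = 0.000235). After sildenafil, MC38 cells at 104 ± 4.64 CPM overlapped LLC cells at 108 ± 1.29 CPM, so that the line with the least Scarb1 in controls was no longer apart from the line with the most.

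Lrpap1, the receptor chaperone (chr5:35091501-35105766, minus strand, 8 exons), had sildenafil libraries above the controls in all 3 lines. The share of all genes that separated in this way was not computed. Vldlr, without reads in LLC and MC38, could not do so. Lrpap1 had 68.1, 71.4 and 67.3 CPM in LLC sildenafil libraries, against 50, 49.7 and 53.4 CPM in LLC controls. It had 46.8, 48.9 and 45.4 CPM in MC38 sildenafil libraries, against 44.8, 44.4 and 40.9 CPM in MC38 controls. It had 52.2, 55.2 and 52.3 CPM in 4T1 sildenafil libraries, against 42.5, 44.4 and 43.6 CPM in 4T1 controls. The gap was widest in LLC and narrowest in MC38. Lrpap1 rose by a log2 fold change of 0.43 ± 0.0506 in LLC (edgeR adjusted p = 0.000344) and 0.29 ± 0.0378 in 4T1 (adjusted p = 1.25e-05). Its change of 0.12 ± 0.0463 in MC38 did not pass (adjusted p = 0.0587). The MC38 change was called with library totals (adjusted p = 0.0225), without a filter on low counts (adjusted p = 0.0319), with protein-coding genes alone (adjusted p = 0.0478) and without MC38 sildenafil replicate 3 (adjusted p = 0.0386). The response was higher in LLC than in MC38 (0.33 ± 0.065, adjusted p = 0.000677). It was lower in MC38 than in 4T1 (-0.19 ± 0.0642, adjusted p = 0.0243) and did not pass between LLC and 4T1 (0.14 ± 0.0636, adjusted p = 0.0816) unless 4T1 sildenafil replicate 2 or LLC control replicate 3 was left out (adjusted p = 0.0404 and 0.0201). The call between MC38 and 4T1 was lost in 5 of the 12 fits that left out 1 library of those lines (4T1 control replicate 1 or sildenafil replicate 2, MC38 control replicate 1 or 2 or sildenafil replicate 3; highest adjusted p = 0.0767) and without a filter on low counts (adjusted p = 0.0795). Control levels were 50.2 ± 2.21 CPM in LLC, 45.4 ± 2.2 CPM in MC38 and 41.6 ± 0.874 CPM in 4T1 on the scale of all 18 libraries (SD, n = 3 each). LLC was above 4T1 by 0.27 ± 0.0456 (adjusted p = 9.34e-06). LLC was above MC38 by 0.14 ± 0.0465 (adjusted p = 0.00739), a call lost without MC38 control replicate 3 (adjusted p = 0.0775), without LLC control replicate 3 (adjusted p = 0.0566) and without a filter on low counts (adjusted p = 0.0619). MC38 was above 4T1 by 0.13 ± 0.0458 (adjusted p = 0.0147), a call lost with library totals (0.017, adjusted p = 0.719), without a filter on low counts (adjusted p = 0.125) and without 4T1 control replicate 1 (adjusted p = 0.0621) or MC38 control replicate 1 or 2 (adjusted p = 0.0801 and 0.0672).

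**Figure D4:**
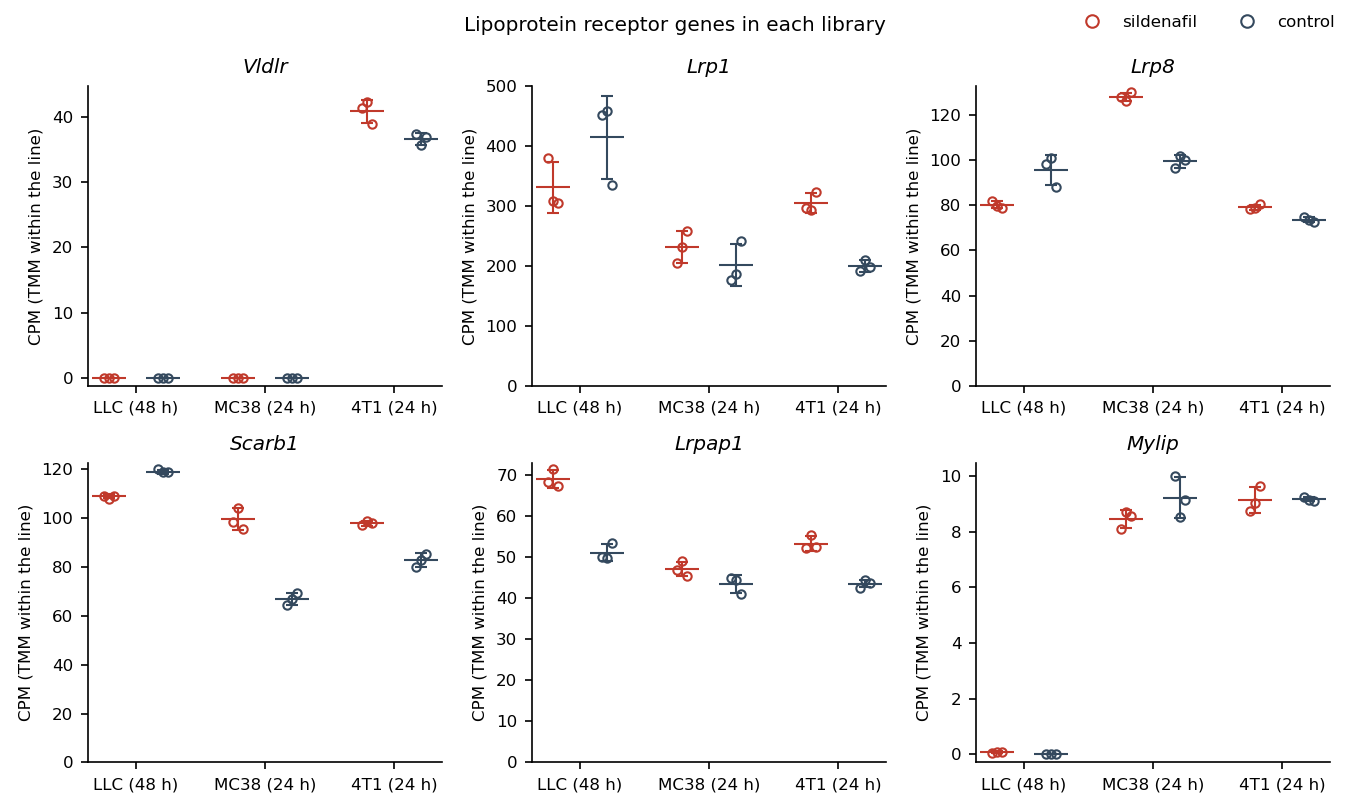
CPM (TMM within the line) of the 6 genes in every library, sildenafil left of control in LLC (48 h), MC38 (24 h) and 4T1 (24 h); circles are libraries, dashes the mean and whiskers the SD of 3 libraries. Lrp8 and Scarb1 lie below the controls in LLC and above them in MC38 and 4T1, and Lrpap1 lies above the controls in every line.

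**Figure D5:**
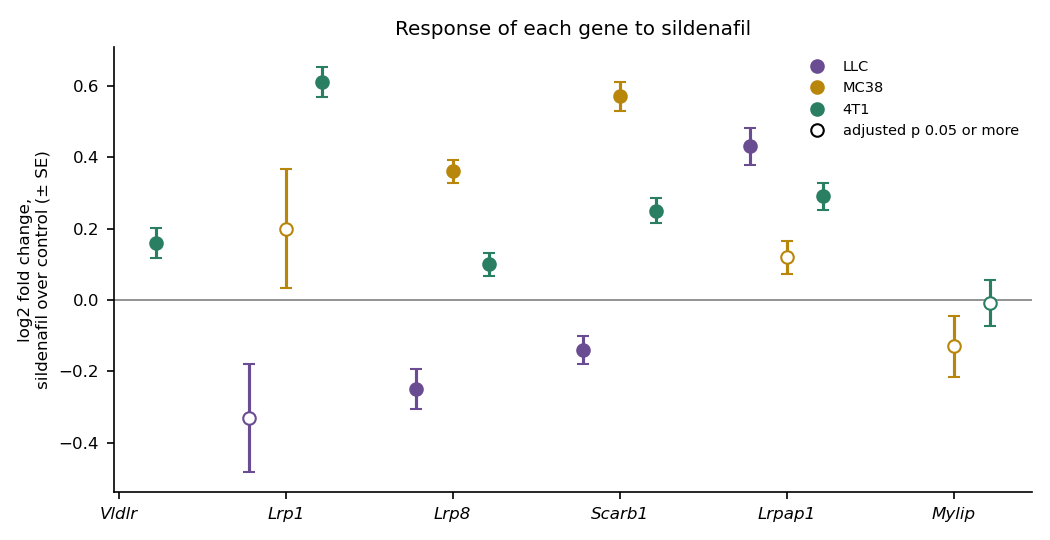
Log2 fold change of sildenafil over control with its SE for each gene in LLC, MC38 and 4T1 from edgeR; filled points have an adjusted p under 0.05, and genes not tested in a line have no point. Lrp1 in 4T1 has the highest value at 0.61, and the 3 LLC points of Lrp1, Lrp8 and Scarb1 lie below 0.

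Counted over the set, the response to sildenafil differed by the test in 4 of the 6 genes between LLC and MC38, 4 of 6 between LLC and 4T1 and 3 of 6 between MC38 and 4T1. Of all 16040 genes tested, 22.3%, 42% and 34.6% did. Mylip is among the first 2 counts (adjusted p = 0.02 and 0.0131), where it rests on the 6 reads of the LLC sildenafil libraries. Mylip had not passed the filter of the LLC test and entered this fit only through its reads in MC38 and 4T1. The first 2 counts are therefore not to be read against the shares of all genes with Mylip in them. Both of its calls were lost without LLC sildenafil replicate 3 (adjusted p = 0.0763 and 0.0503), and that between LLC and MC38 also without LLC control replicate 1 or 2 (adjusted p = 0.0571 and 0.0527). Vldlr could not be called in any.

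Genes of the SREBP2 pathway, for cholesterol synthesis enzymes and regulators of sterol sensing, are given as a measure of the sterol response in the same libraries. Of 8 such genes, 7 rose in LLC, 7 in MC38 and 8 in 4T1 and none fell, against 15.1%, 19.5% and 33.5% of all genes called higher. Their median log2 fold changes were 0.76, 1.7 and 1.86. The gene not called in MC38 was Srebf1 (0.0011 ± 0.0366, edgeR adjusted p = 0.986). Hmgcs1, an enzyme of the mevalonate pathway, rose by 1.13 ± 0.0656 in LLC, 2.75 ± 0.0367 in MC38 and 2.72 ± 0.0365 in 4T1, and Insig1, which retains the SREBP complex in the endoplasmic reticulum, by 1.01 ± 0.052, 2.31 ± 0.0288 and 3.29 ± 0.0317. Srebf2, the gene of SREBP2 itself, changed by 0.018 ± 0.125 in LLC, which did not pass (edgeR adjusted p = 0.929), and rose by 0.72 ± 0.0404 in MC38 and 0.97 ± 0.0269 in 4T1. The highest log2 fold change among the members tested was 0.43 in LLC (Lrpap1), 0.57 in MC38 (Scarb1) and 0.61 in 4T1 (Lrp1), below these medians in each line.

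Of 22 other receptors of lipoproteins and related sorting receptors, 4 rose and 1 fell of 11 tested in LLC, 6 rose and 1 fell of 13 in MC38 and 9 rose and 4 fell of 14 in 4T1. Their median log2 fold changes were 0.12, 0.091 and 0.23, to be set beside the medians of all genes and the called shares given above, as for each list below. Cxcl16, a scavenger receptor and chemokine, rose in MC38 (0.73 ± 0.0489) and in 4T1 (1.00 ± 0.0401, edgeR adjusted p = 1.64e-10). Lrp2 (megalin) fell in LLC (-1.33 ± 0.0952), where Olr1, a scavenger receptor for oxidised lipoprotein, rose (1.40 ± 0.298). In 4T1 the sorting receptor gene Sorl1 rose (0.64 ± 0.0365) and Ldlrad3 fell (-0.76 ± 0.0367). Lrp10 rose in all 3 lines, by 0.20 ± 0.0529 in LLC, 0.10 ± 0.03 in MC38 and 0.26 ± 0.0375 in 4T1.

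Of 14 genes for adaptors and trafficking factors of these receptors, 4 rose and 1 fell of 12 tested in LLC, 3 rose and none fell of 12 in MC38 and 7 rose and 1 fell of 11 in 4T1, with medians of 0.12, 0.026 and 0.12. Rab11a, a GTPase of recycling endosomes, rose in each line, by 0.31 ± 0.0542 in LLC, 0.20 ± 0.0346 in MC38 and 0.31 ± 0.0338 in 4T1. Washc1, a subunit of the endosomal WASH complex, did so too, by 0.32 ± 0.0524, 0.21 ± 0.0453 and 0.31 ± 0.0383. The clathrin adaptor Dab2 fell in LLC (-0.53 ± 0.114, edgeR adjusted p = 0.0136), changed by -0.042 ± 0.0539 in MC38 (adjusted p = 0.587) and rose in 4T1 (0.35 ± 0.041, adjusted p = 4.63e-06). Snx17, which returns Lrp1 to the surface, rose in LLC (0.15 ± 0.0433) and was not called in MC38 (0.018 ± 0.0365) or 4T1 (-0.04 ± 0.0382).

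Among 6 chaperones, Lrpap1 included, 3 rose in LLC and 3 in MC38 with none falling, and 2 rose and 2 fell in 4T1, with medians of 0.11, 0.14 and -0.016. Calr, a calcium-binding chaperone, rose in each line (0.31 ± 0.0723 in LLC, 0.18 ± 0.0325 in MC38 and 0.18 ± 0.0286 in 4T1). Mesd, a chaperone of receptors of the Lrp1 family, rose in LLC (0.20 ± 0.043), was not called in MC38 (0.056 ± 0.0323, edgeR adjusted p = 0.196) and fell in 4T1 (-0.14 ± 0.0533). Hspa5 (BiP) was not called in LLC (0.019 ± 0.0669, adjusted p = 0.854), rose in MC38 (0.22 ± 0.0296) and fell in 4T1 (-0.56 ± 0.0306).

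Of 12 genes around Mylip, its liver X receptor inducers, E2 enzymes, deubiquitinases and other liver X receptor targets, 3 rose and none fell of 10 tested in LLC, 3 rose and 3 fell of 10 in MC38 and 3 rose and 4 fell of 11 in 4T1. The medians were 0.1, -0.013 and 0.03. Abca1, a liver X receptor target that exports cholesterol, rose in LLC (1.18 ± 0.0856) and fell in MC38 (-1.67 ± 0.06, edgeR adjusted p = 1.15e-10), and Abcg1, another, fell in 4T1 (-1.55 ± 0.179). Mylip was not called in the same MC38 and 4T1 libraries. Nr1h2, which encodes liver X receptor beta, was not called in LLC (0.082 ± 0.0616, adjusted p = 0.338) and rose in MC38 (0.39 ± 0.0633) and 4T1 (0.75 ± 0.0418), and Nr1h3, which encodes liver X receptor alpha, rose in LLC (0.65 ± 0.188) and was not called in 4T1 (0.15 ± 0.133). The deubiquitinase Usp2 was not called in LLC (-0.48 ± 0.213) or MC38 (-0.29 ± 0.175) and rose in 4T1 (0.40 ± 0.135).

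Of 18 ligands and lipases, 4 rose and 2 fell of 11 tested in LLC, 5 rose and 4 fell of 13 in MC38 and 7 rose and 2 fell of 12 in 4T1. The medians were 0.12, -0.063 and 0.35. Lipa, the lysosomal acid lipase that frees cholesterol from lipoproteins taken up, rose in each line, by 0.65 ± 0.0607 in LLC, 0.42 ± 0.0445 in MC38 and 1.49 ± 0.0444 in 4T1. Lipg, an endothelial-type lipase, rose in MC38 (1.63 ± 0.0495) and 4T1 (1.07 ± 0.0399) and was not called in LLC (0.37 ± 0.3). Apoe, a ligand of Vldlr, Lrp8 and Lrp1, was not called in LLC (-0.13 ± 0.166) or MC38 (-0.27 ± 0.112, edgeR adjusted p = 0.0707) and fell in 4T1 (-0.48 ± 0.191, adjusted p = 0.0394). Lpl, lipoprotein lipase, fell in LLC (-0.44 ± 0.0628).

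The genes whose levels were most alike to each member across the 18 libraries were found among 10216 genes, as a description, since libraries share lines and treatment. For Vldlr they were Ctsc, Epcam and Perp (Pearson's r of at least 0.9999), which like it separate 4T1 from the other lines. For Mylip they were Acsf2, Ubac2 and Col5a1 (r of 0.996 to 0.9974). The highest r was 0.9349 for Lrp1 (Ago1), 0.9766 for Lrp8 (Btbd8), 0.9393 for Scarb1 (P4ha1) and 0.9426 for Lrpap1 (Ccdc91).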

How the data were processed

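PolyA RNA of the 3 lines was sequenced from both ends with a stranded kit, per the labels' protocols. The authors deposited expected counts for each gene. RSEM 1.3.1 and STAR 2.7.0f, with mm10 as the build, are named in the submitters' processing notes. The sources used here do not give the annotation or the strand setting. All 55450 identifiers matched GENCODE M21, which gave positions and exon lengths. Antisense and overlapping genes of the members shared 0 exon bases with them.

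Expected counts were rounded, and groups were taken from the labels. Each line's 6 libraries were fitted with edgeR 4.0.16 in R 4.3.3 (default expression filter, TMM factors, robust quasi-likelihood F test, Benjamini-Hochberg adjustment over all genes, threshold 0.05). Differences of response and control levels came from a fit of all 18 libraries with 1 coefficient per group. The SE is the size of the log2 fold change divided by the square root of F. Within-line CPM used TMM factors of that line, and CPM across lines those of all 18 libraries. The scripts' tests were checked on simulated data. Alternatives were DESeq2 1.42.0, RLE factors, library totals, other filters, the replicate block, protein-coding genes alone, Gm26917 as a covariate, the compared libraries alone or all 18 in 1 fit, and each library left out.

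The members and gene lists were chosen with earlier results of these data known. All 6 members are named; of each list, genes are named from the up to 4 with the smallest adjusted p per line and from 15 given whatever their values; some genes that this rule names are not reported here; for each member the 3 genes with the highest Pearson's r of log2 CPM (prior count 2, mean of at least 5 CPM) were sought. Library counts bound precision: the floors cover counting error only, while SD and SE cover the spread among the sequenced libraries. Plots were drawn with matplotlib 3.10.9.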

Additional observations from a re-analysis of the deposited data

Results flagged for a closer look

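The response to sildenafil differed between lines, by the interaction test of edgeR in the fit of all 18 libraries, in 9 cases among 4 of the genes, leaving aside Mylip in LLC with its 6 reads. Values are differences of log2 fold change. Between LLC and MC38 they were -0.60 for Lrp8, -0.69 for Scarb1 and 0.33 for Lrpap1. Between LLC and 4T1 they were -0.93 for Lrp1, -0.36 for Lrp8 and -0.38 for Scarb1. Between MC38 and 4T1 they were 0.24 for Lrp8, 0.31 for Scarb1 and -0.19 for Lrpap1. Lrp8 and Scarb1 thus differed in each pair of lines, in the order MC38, 4T1, LLC from the highest response to the lowest. LLC was treated for 48 h and the others for 24 h, so line and time cannot be told apart there, nor line and medium between 4T1 and the others. The share of protein-coding counts also set 4T1 apart. The differences between lines were not fitted with the Gm26917 level as a covariate. With it within the line, the Lrp1 fold change was 0.0005 ± 0.0633 in LLC and 0.31 ± 0.2 in 4T1.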

How the results depend on the processing

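Over 716 alternative values of single genes, 649 kept their direction and side of the threshold, 40 lost a call, 19 gained one and 8 turned direction. The 716 include control levels set against a line at 0, with 13 values for each comparison. These are Vldlr in LLC and in MC38 over 4T1, and Mylip in LLC over MC38 and over 4T1. Such values could hardly change side and do not measure stability. With Gm26917 as a covariate, 0 members were called in 4T1 (5 without it), 2 in MC38 (2 without it) and 1 in LLC (3 without it), while the 4T1 fold changes of Vldlr, Scarb1 and Lrpap1 were 0.44, 0.37 and 0.59 with SE of 0.227, 0.192 and 0.197, Lrpap1 in MC38 came to -0.033 and Lrp1 in LLC to 0.0005; that fit called 964 of all genes in 4T1, 923 in MC38 and 2208 in LLC, against 9285, 5047 and 3702 without it. The Mylip response in 4T1, which was never called, was 0.06 with library totals, 9.3e-05 without a filter, 0.02 with the 5 CPM filter, 0.013 in the fit of all 18 libraries and from -0.042 to 0.024 with 1 library left out (0.024 without sildenafil replicate 1). The Lrp1 control level of MC38 over 4T1 ran from -0.0073 (without MC38 control replicate 3) to 0.23 with 1 library left out. Whether the replicate numbers pair the libraries was not settled. Correlations of same-numbered deviations ran from -0.0507 to 0.139 in LLC, 0.0104 to 0.238 in MC38 and -0.0719 to 0.0486 in 4T1. Those of differently numbered libraries ran from -0.182 to 0.0736, -0.194 to 0.128 and -0.146 to 0.102. With the replicate block, 4078 of all genes were called in LLC, 5867 in MC38 and 9090 in 4T1, against 3702, 5047 and 9285 without it. With that block 4 members were called in MC38, against 2 without it. The edgeR adjusted p was 0.000301 for Lrp1 and 0.0189 for Lrpap1. The LLC response of Lrp1 was also called (adjusted p = 0.0342). So were the differences of Lrp1 response between LLC and MC38 (adjusted p = 0.0101) and between MC38 and 4T1 (adjusted p = 0.0166). Leaving out 1 library moved the count of members changed in LLC between 1 and 4 (1, Lrpap1, without sildenafil replicate 2 or 3; 4, Lrp1 added, without control replicate 3), and the count of all genes called in LLC to 1841 without sildenafil replicate 3, 1999 without sildenafil replicate 2, 2299 without control replicate 1 and 5994 without control replicate 3. Library totals shifted the median of all genes by -0.102 between MC38 and 4T1 controls. The causes were not tested. Depth limits Vldlr and Mylip, where 0 counts leave levels under the stated floors undetectable.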
